A study of Mus musculus with 4 samples.

Results

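Zscan4a, Zscan4c, Zscan4d, Zscan4f, Zfp352, Tcstv1, Tcstv3, Usp17la, Usp17lc and Usp17ld are genes known for a short burst of transcription in the mouse 2-cell embryo, and they were followed here from the oocyte to the blastocyst in single cells read as full-length cDNA. The 10 members were chosen by gene symbol, not by a measured value. Of these, 9 had a row among the 20171 genes of the gene table. Zscan4a, which the mouse annotation classes as an unprocessed pseudogene, had none. A total of 7 members reached at least 1 copy per 100,000 unique molecular identifiers (UMIs, each marking 1 captured cDNA molecule) in at least 4 embryos and entered the tests, while Usp17la and Usp17ld, with 4 UMIs each in all cells, stayed below that limit. The isoform table held 12 isoforms of 4 members (Tcstv1, Tcstv3, Zscan4c and Zscan4d) among 68012 isoforms.

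These genes belong to the programme that opens when the embryonic genome is first transcribed. In mouse the programme starts in the early 2-cell embryo, is driven in part by the double homeodomain protein DUX, which Duxf3 encodes, and also runs in a small and transient fraction of cultured embryonic stem cells. ZSCAN4 proteins carry a SCAN domain and zinc fingers, bind DNA, and are known for telomere lengthening by recombination and for loss of DNA methylation in stem cells. The Usp17l genes encode deubiquitinating enzymes of the DUB family, Zfp352 encodes a zinc finger protein, and Tcstv1 and Tcstv3 are 2-cell genes whose forced expression has also been linked to telomere length.

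The embryos came from C57BL/6J females of 6 to 8 weeks, which were superovulated and mated with males that the study's methods give as DBA/2NCrl and the strain label as DBA/2J (DBA/2J x C57BL/6J), and stages were timed in hours after injection of human chorionic gonadotropin (hCG). The groups were unfertilized oocytes (20 h, 10 cells), zygotes (22 to 24 h, 9 cells), early 2-cell embryos (E2C, 30 to 32 h, 10 cells of 5 embryos), late 2-cell embryos (L2C, 46 to 48 h, 11 cells of 6 embryos), 4-cell embryos (54 to 56 h, 17 cells of 5), 8-cell embryos (68 to 70 h, 26 cells of 4) and 16-cell embryos (78 to 80 h, 38 cells of 4). Cells of 32-cell embryos (78 to 80 h, 22), early blastocysts (88 to 90 h, 13) and E14 mouse embryonic stem cells (mESC, a male line grown on gelatin, 5) named no embryo or culture, so they are given by their range and entered no test. All embryo groups share the same cross and hormone treatment, and mESC differ from them in genotype and culture. No source says that the oocytes or embryos of a stage came from separate females, so p-values measure the spread between these oocytes, zygotes and embryos. Batch 4 held isoform counts of 4 intact oocytes, 6 parts of oocytes cut in 2 and 6 parts of oocytes cut in 4. Depth fell from 166731 to 389775 UMIs a cell in oocytes and zygotes to between 4985 and 105534 from E2C to 16-cell, so that 1 UMI weighed far more in a later cell. The stage names were checked with marker genes. The summed level of 5 oocyte markers (H1foo, Bmp15, Gdf9, Zp3, Mos) was 1725 to 2949 copies per 100,000 in oocytes and 33.4 to 128 in L2C embryos. It was 6.89 to 221 in 16-cell embryos and 94.3 to 264 in blastocyst cells. The 5 blastocyst markers (Cdx2, Krt8, Krt18, Eomes, Gata3) summed to at most 9.54 before the 8-cell stage and to 11.9 or more in each 8-cell and 16-cell embryo. In single blastocyst cells their sum ranged from 4.22 to 412. The 5 mESC markers (Nanog, Sox2, Zfp42, Dppa3, Esrrb) did not mark mESC as a sum, with medians of 147 in mESC and 1203 in oocytes. Dppa3 was at 42.5 in mESC and 1117 in oocytes, while Sox2, Zfp42 and Esrrb were highest in mESC and Nanog was not. Of 5 cumulus cell markers 4 were measured, and they summed to at most 1.24 copies per 100,000 up to E2C and to 5.56 to 42.1 in L2C and 4-cell embryos, where Amhr2 gave most of the sum and Has2, Tnfaip6 and Inhba were at or near 0. The part of cumulus RNA in the values below was not tested.

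The members are clustered copies, and that bears on every value. The Zscan4 genes lie within 819871 bases of chromosome 7 (GRCm38, GENCODE vM21, positions 10794242 to 11614112), with Zscan4c at 11005745 to 11010547 on the plus strand, Zscan4d at 11161374 to 11166159 on the minus strand and Zscan4f at 11397915 to 11402318 on the plus strand. The Usp17l genes span 1612931 bases of the same chromosome, with Usp17ld at 103249737 to 103252505 (minus), Usp17lc at 103415072 to 103419880 (plus) and Usp17la at 104857009 to 104862667 (plus). Tcstv1 (119893388 to 119894785, minus) and Tcstv3 (120316878 to 120318178, plus) lie on chromosome 13, and Zfp352 (90218820 to 90225702, plus) stands alone on chromosome 4. The annotated transcripts of Zscan4c and Zscan4f differed at 9 of 1806 aligned bases (99.5% identity), and those of Zscan4c and Zscan4d were 97.5% identical. Identity was 97.8% between Usp17lc and Usp17ld, 93.7% between Usp17la and Usp17lc, and 94.4% over 640 aligned bases between Tcstv1 and Tcstv3. Reads of such copies can be split or misassigned, so the value of 1 copy is uncertain. The sum over the 8 Zscan4 copies in the gene table (Zscan4b, c, d, e, f and the annotated copies Zscan4-ps1, -ps2 and -ps3) is therefore given beside the single copies.

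The sequences just before the starts of the Zscan4 genes show how alike the copies are at the DNA level, also where transcription begins. RefSeq (GRCm38.p6) gave a promoter for 7 members. The letters TGAT followed after any 2 bases by AATCA, the core of sites known to be bound by mouse DUX, were searched in the direction of transcription and on the other strand (TGATT, any 2 bases, ATCA) in the 250 bases before each start. They occurred in 68 of 32851 promoters (0.207%). Of the 7 members with a promoter, 3 held them, Zscan4c, Zscan4d and Zscan4f, all as TGATAGAATCA, at 114, 125 and 91 bases before the start. They did not occur in this window of Zfp352, Usp17la, Usp17lc or Usp17ld, which says nothing of whether the factor binds there. The promoters are shown 5′ to 3′ in the direction of transcription, with the motif in capitals, for Zscan4c (chr7:11005495-11005744, plus strand), Zscan4d (chr7:11166149-11166398, minus strand), Zscan4f (chr7:11397665-11397914, plus strand) and, as members without the motif, Usp17lc (chr7:103416446-103416695, plus strand) and Zfp352 (chr4:90218570-90218819, plus strand), whose window is a run of near-identical short repeats.
Zscan4c: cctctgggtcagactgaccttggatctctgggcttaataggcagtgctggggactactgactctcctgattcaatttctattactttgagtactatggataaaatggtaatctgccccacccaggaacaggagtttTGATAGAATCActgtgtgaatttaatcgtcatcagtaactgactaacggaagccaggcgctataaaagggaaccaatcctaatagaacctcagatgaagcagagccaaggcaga
Zscan4d: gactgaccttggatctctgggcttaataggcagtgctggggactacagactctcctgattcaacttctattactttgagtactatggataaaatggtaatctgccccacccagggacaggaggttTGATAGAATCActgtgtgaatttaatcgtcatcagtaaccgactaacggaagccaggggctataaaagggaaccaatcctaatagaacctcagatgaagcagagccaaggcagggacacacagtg
Zscan4f: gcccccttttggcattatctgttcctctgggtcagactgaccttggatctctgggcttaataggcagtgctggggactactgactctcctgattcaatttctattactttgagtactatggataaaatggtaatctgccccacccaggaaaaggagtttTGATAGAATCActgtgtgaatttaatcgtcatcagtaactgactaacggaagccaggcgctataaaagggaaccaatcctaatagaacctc
Usp17lc: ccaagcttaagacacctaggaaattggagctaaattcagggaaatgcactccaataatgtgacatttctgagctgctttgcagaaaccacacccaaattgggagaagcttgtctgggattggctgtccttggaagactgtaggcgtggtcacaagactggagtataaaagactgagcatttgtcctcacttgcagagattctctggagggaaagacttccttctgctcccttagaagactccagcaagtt
Zfp352: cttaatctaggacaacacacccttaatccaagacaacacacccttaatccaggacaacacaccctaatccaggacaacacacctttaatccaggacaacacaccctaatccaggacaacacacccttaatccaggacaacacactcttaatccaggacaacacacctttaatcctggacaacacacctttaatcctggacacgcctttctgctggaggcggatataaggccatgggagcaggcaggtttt
Over the bases that could be aligned, the windows of Zscan4c and Zscan4f were 99.6% identical and those of Zscan4c and Zscan4d 97.5%.

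The Zscan4 genes appeared in E2C embryos and were nearly gone by the 8-cell stage. Summed over the 8 copies, oocytes held 2 UMIs in all, zygotes 19, E2C 184, L2C 46 and 4-cell embryos 15, after which 1 UMI was left at the 8-cell stage, 1 at the 16-cell stage and 3 in 32-cell embryos. Blastocyst cells held 0 of 605474 UMIs, which allows up to 0.495 copies per 100,000, and mESC 0 of 103590, which allows up to 2.90, beside a pooled level of 2.86 in 4-cell embryos. The mean level of the sum was 0.670 ± 0.779 copies per 100,000 in zygotes (SD, n = 9), 18.6 ± 26.8 in E2C (n = 5), 7.81 ± 6.78 in L2C (n = 6) and 3.72 ± 4.21 in 4-cell embryos (n = 5). The mean in L2C lay within 1 SD of the E2C mean, but only because the SD in E2C was that wide. Without E2C embryo 3 the order of the 2 stages turned, since the other 4 E2C embryos had a mean of 7.05 ± 7.96. The means of L2C and 4-cell embryos differed by less than either SD, and without 4-cell embryo 3 the 4-cell mean was 1.87 ± 0.878 (n = 4).

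The SD in E2C exceeded the mean because the embryos differed widely. The 5 E2C embryos held 0.547, 9.13, 65.0, 17.4 and 1.09 copies of the summed Zscan4 genes per 100,000 (1, 17, 129, 35 and 2 UMIs). Embryo 3 thus carried most of the UMIs, while embryos 1 and 5, with 168154 and 123051 UMIs in total, were at a level that 3 UMIs would already exceed (1.78 and 2.44 copies per 100,000). The 6 L2C embryos held 5.56, 5.23, 7.70, 20.8, 0.861 and 6.72, a narrower range in which every embryo had at least 1 UMI. Embryo 1 of L2C was a single cell, and its 5.56 rested on 1 UMI.

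Zscan4d gave the most UMIs of the copies in E2C. Its level in the 5 E2C embryos was 0, 5.45, 15.2, 8.48 and 0 copies per 100,000, and in L2C embryos 3, 4 and 6 it was 3.55, 7.51 and 1.61, with 1 UMI in embryo 2 and none in embryos 1 and 5. Zscan4c, the copy best known from stem cell studies, was at 0, 2.63, 12.0, 5.93 and 1.09 in E2C and at 5.56, 0, 0, 2.83, 0 and 0.875 in L2C. Zscan4f was found in a single E2C embryo, embryo 3, at 7.93 (16 UMIs), and in L2C at 0, 1.74, 0, 5.31, 0 and 2.49. For all 3 copies the E2C embryo with the highest level was embryo 3. Among L2C embryos, embryo 4 was highest for Zscan4d and Zscan4f, and the single cell of embryo 1 for Zscan4c. Before E2C, Zscan4c had 2 UMIs and Zscan4d 4 in 9 zygotes, Zscan4d had 1 in 10 oocytes, and Zscan4f was at 0 in both stages. In 4-cell embryos the 3 copies kept 5, 5 and 3 UMIs, of which 7 came from embryo 3.

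**Figure D1:**
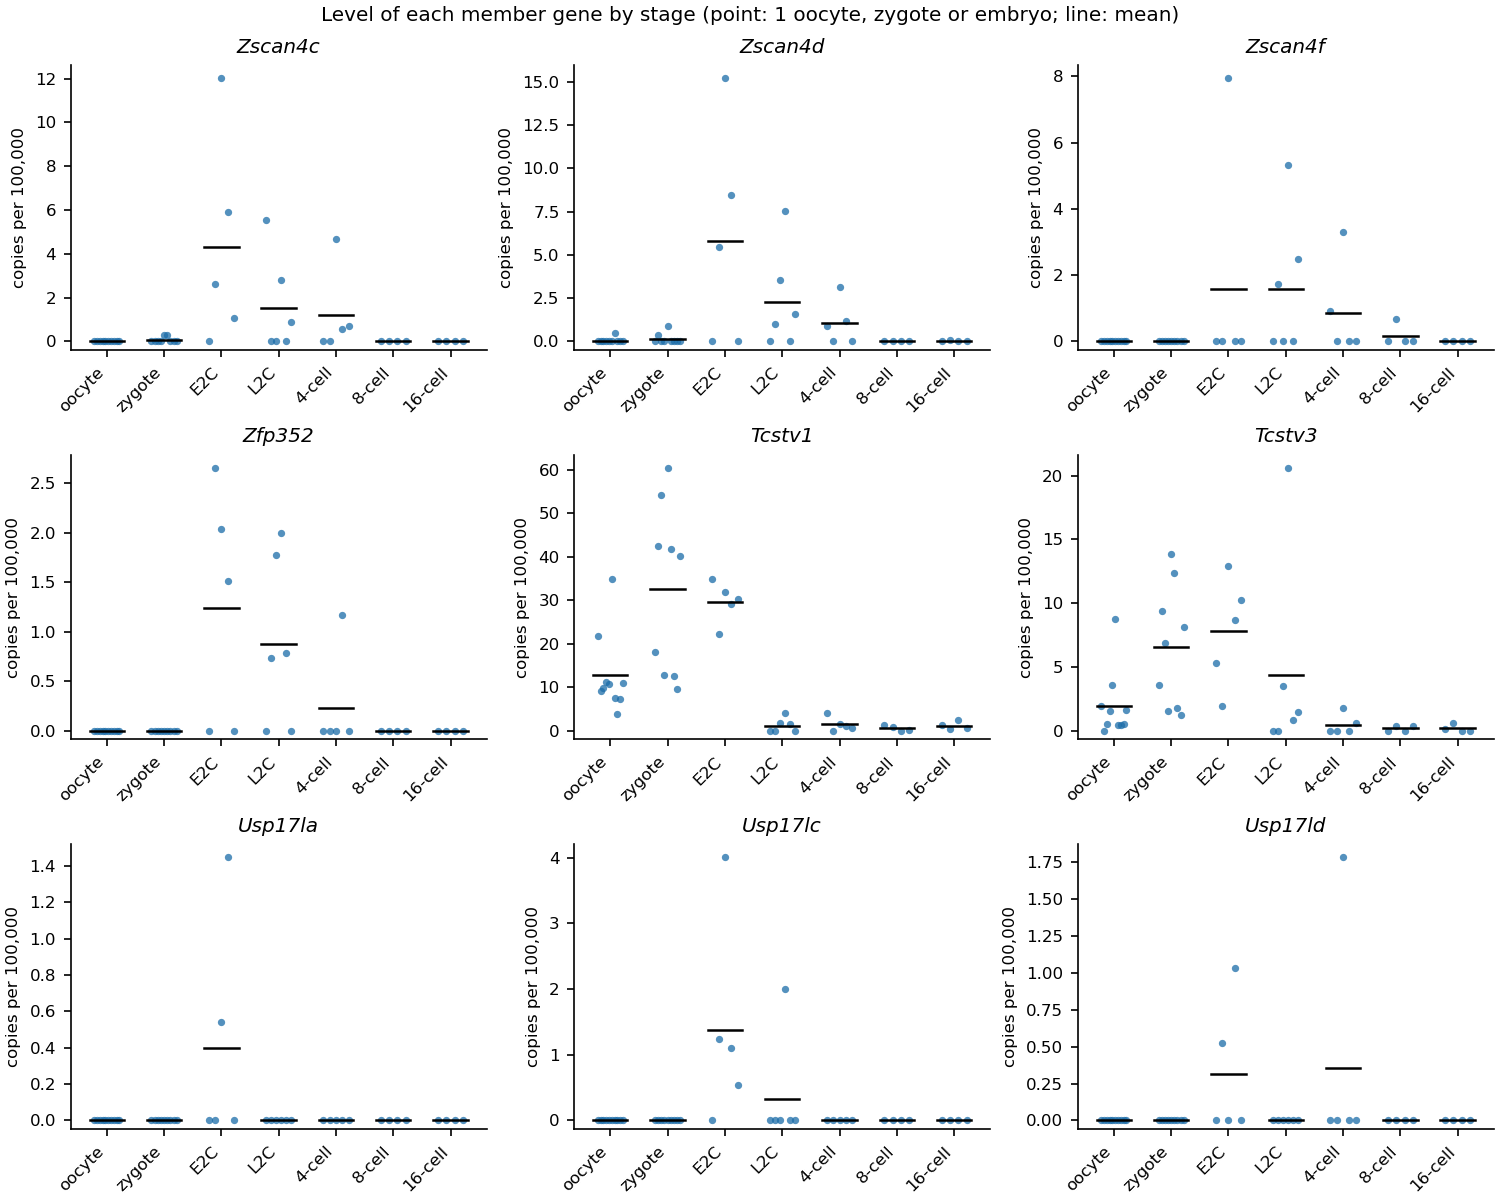
Level of the 9 measured members in copies per 100,000 UMIs (vertical axes, linear, each gene on its own scale) at 7 stages from oocyte to 16-cell (horizontal axes), with 1 point per oocyte, zygote or embryo and a line at the stage mean. Zscan4, Zfp352 and Usp17l members lie at or near 0 up to the zygote and rise in part of the E2C embryos, whereas Tcstv1 lies between 22.2 and 34.9 in all 5 E2C embryos and between 0 and 4.14 in the 6 L2C embryos.

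Sister blastomeres of a 2-cell embryo were read separately, which let the level of each cell be given. In E2C embryo 3 the summed Zscan4 genes had 55 and 74 UMIs in its sister cells, in embryo 4 they had 27 and 8, and in embryo 2 they had 1 and 16. Embryos 1 and 5 had their 1 and 2 UMIs in a single cell. The median absolute difference between sisters, on the scale of log2(copies per 100,000 + 1), was 1.46 over the 5 E2C embryos and 0.60 over the 5 L2C embryos with both cells, and for Tcstv1 in E2C it was 0.38. Whether sisters were more alike than cells of different embryos was not tested on these few pairs. Duxf3 was more evenly spread: it was at 6.64, 2.13, 5.50, 6.06 and 3.24 copies per 100,000 in the 5 E2C embryos (11, 3, 11, 12 and 4 UMIs), it had 1 UMI in the zygotes, and it was at 0 in all 6 L2C embryos. E2C embryo 1, with 11 Duxf3 UMIs and 1 Zscan4 UMI, had no UMI of Zfp352 or of the Usp17l members, and embryo 5 had 4 Duxf3 UMIs, 2 Zscan4 UMIs, 1 Usp17l UMI and none of Zfp352.

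**Figure D2:**
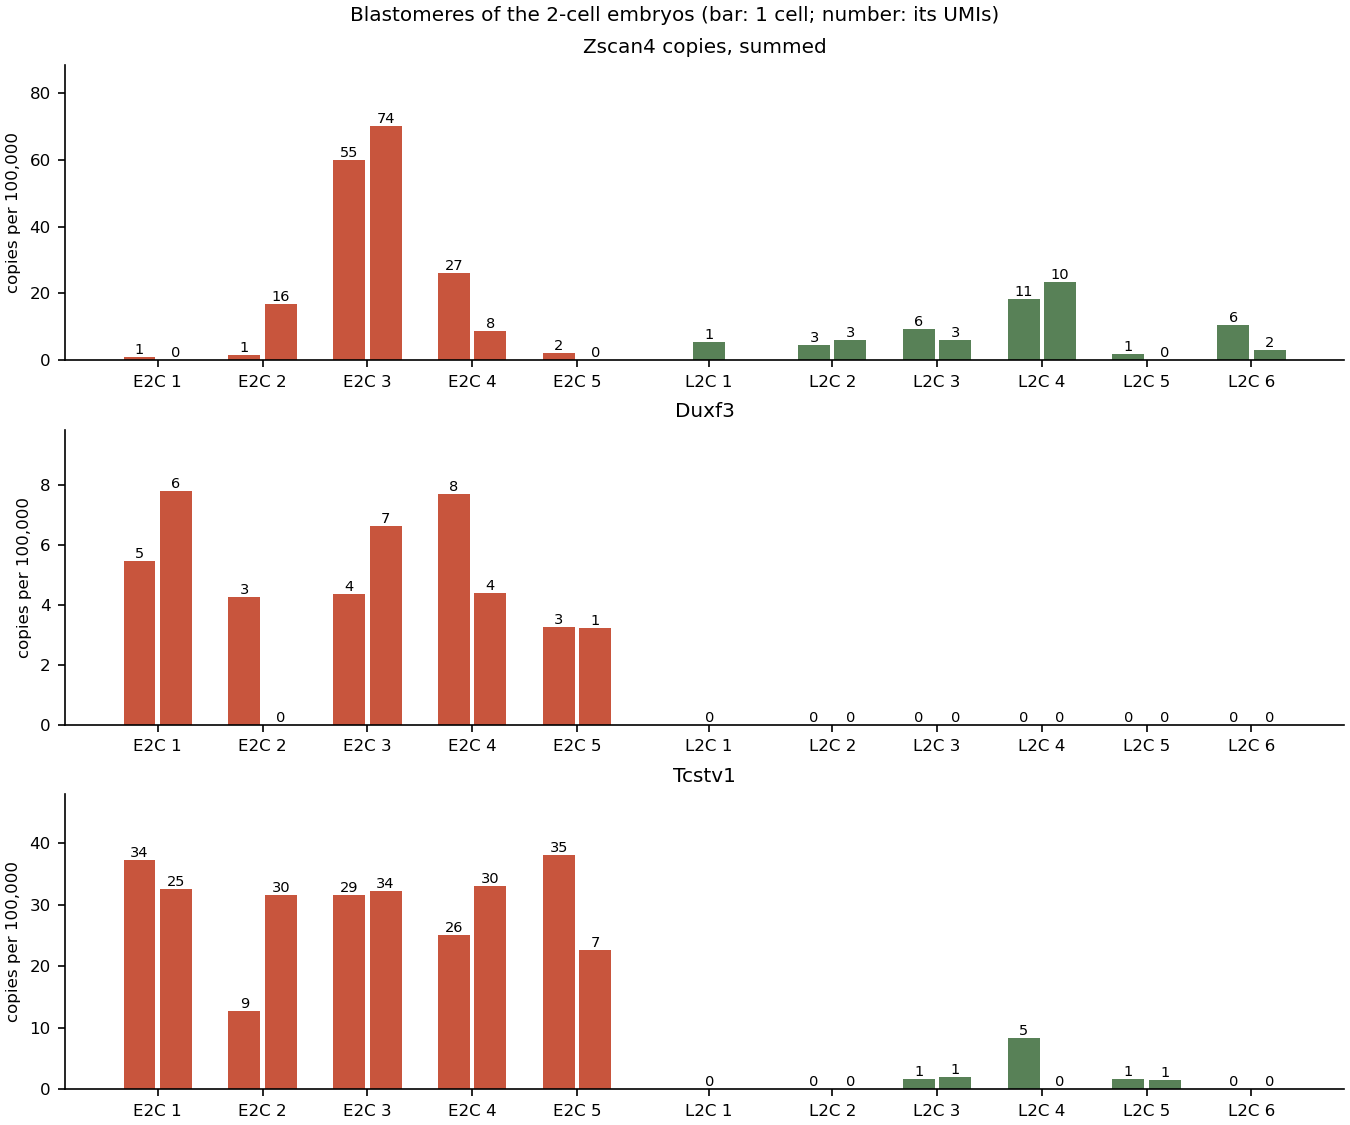
Level in copies per 100,000 UMIs (vertical axes, linear) of the summed Zscan4 copies, Duxf3 and Tcstv1 in each blastomere of the 5 E2C (red) and 6 L2C (green) embryos, with the number of UMIs above each bar; L2C embryo 1 was a single cell. Zscan4 is high in both cells of E2C embryo 3 (55 and 74 UMIs), Duxf3 has UMIs in 9 of 10 E2C cells and none in L2C, and Tcstv1 has UMIs in all 10 E2C cells.

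The members were next compared between adjacent stages with limma, fitted on all 11682 genes that passed the filter over the 43 oocytes, zygotes and embryos. A gene was called where its log2 fold change exceeded 1 in either direction and its unadjusted p was under 0.01, and p-values adjusted over all genes are given beside. Fold changes are on the scale of log2(copies per 100,000 + 1), which understates the change of low genes. From zygote to E2C, 4 of the 7 tested members were called higher and none lower, where 4.52% of all genes were called higher. These members passed the filter mainly through the 2-cell stages in which they are high, so their count is no support for a change of the list. Zscan4d rose by 1.99 (SE 0.338, adjusted p = 1.77e-05), Zscan4c by 1.90 (SE 0.282, adjusted p = 1.30e-06), Usp17lc by 1.08 (SE 0.181, adjusted p = 1.38e-05) and Zfp352 by 1.02 (SE 0.196, adjusted p = 0.000123). Zscan4f differed by 0.69 (SE 0.281, adjusted p = 0.0888), and its difference was 0 without E2C embryo 3. By pooled UMIs, Zscan4c was 61.7 times as high in E2C as in zygotes (95% counting interval 16.1 to 526, from 2 zygote UMIs), and 35.5 times as high without E2C embryo 3, which held 24 of the 43 UMIs. Against the 3 UMIs over a group that a count of 0 allows, E2C was at least 34.3-fold higher than oocytes for Zscan4c and at least 10.5-fold and 12.4-fold higher than zygotes for Zfp352 and Usp17lc. Without E2C embryo 3 these bounds were 19.7, 8.73 and 6.24. The embryos of both stages overlapped for each of these genes, since 1 or more E2C embryos were at 0. In an exact permutation test over embryos (two-sided, unadjusted, smallest possible p 0.0005) Zscan4c and Usp17lc kept p = 0.00999 each, and Zscan4d and Zfp352 were at p = 0.0549. Zfp352 fell under the fold limit without E2C embryo 2 (0.80), 3 (0.84) or 4 (0.96), and Usp17lc fell below the filter without any of the same 3 embryos.

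From E2C to L2C, 2 of the 7 members were called lower and none higher, in a comparison in which 22.8% of all genes were called lower and 25.6% higher. Tcstv1 fell by 4.05 (SE 0.500, adjusted p = 4.11e-10) and Zscan4c fell by 1.41 (SE 0.388, adjusted p = 0.00148). The Zscan4c call was lost without E2C embryo 3 (-0.95), and in the exact permutation test over embryos (two-sided, unadjusted) p was 0.212 for Zscan4c and 0.00433 for Tcstv1, where 0.00216 is the smallest possible. Zscan4d differed by -0.81 (SE 0.465, adjusted p = 0.127) and was called without E2C embryo 1 (-1.38) or 5 (-1.21). Zscan4f differed by 0.35 (SE 0.387, adjusted p = 0.445) and was called higher in L2C without E2C embryo 3 (1.04). Usp17lc differed by -0.86 (SE 0.248, adjusted p = 0.00236), which did not reach the fold limit, and Zfp352 by -0.17 (SE 0.269, adjusted p = 0.594). Tcstv3 differed by -1.51 (SE 0.593, adjusted p = 0.0251), and its unadjusted p of 0.0135 missed the limit. The comparisons share the E2C embryos, so a high or low E2C embryo moves both in opposite directions. From L2C to 4-cell, 4-cell to 8-cell and 8-cell to 16-cell, 0 of the 7 members were called by limma, where 6.69%, 15.0% and 3.36% of all genes were, and at an unadjusted p under 0.05 the count was 0 as well. By edgeR, a count model, 1 member was called from L2C to 4-cell.

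**Figure D3:**
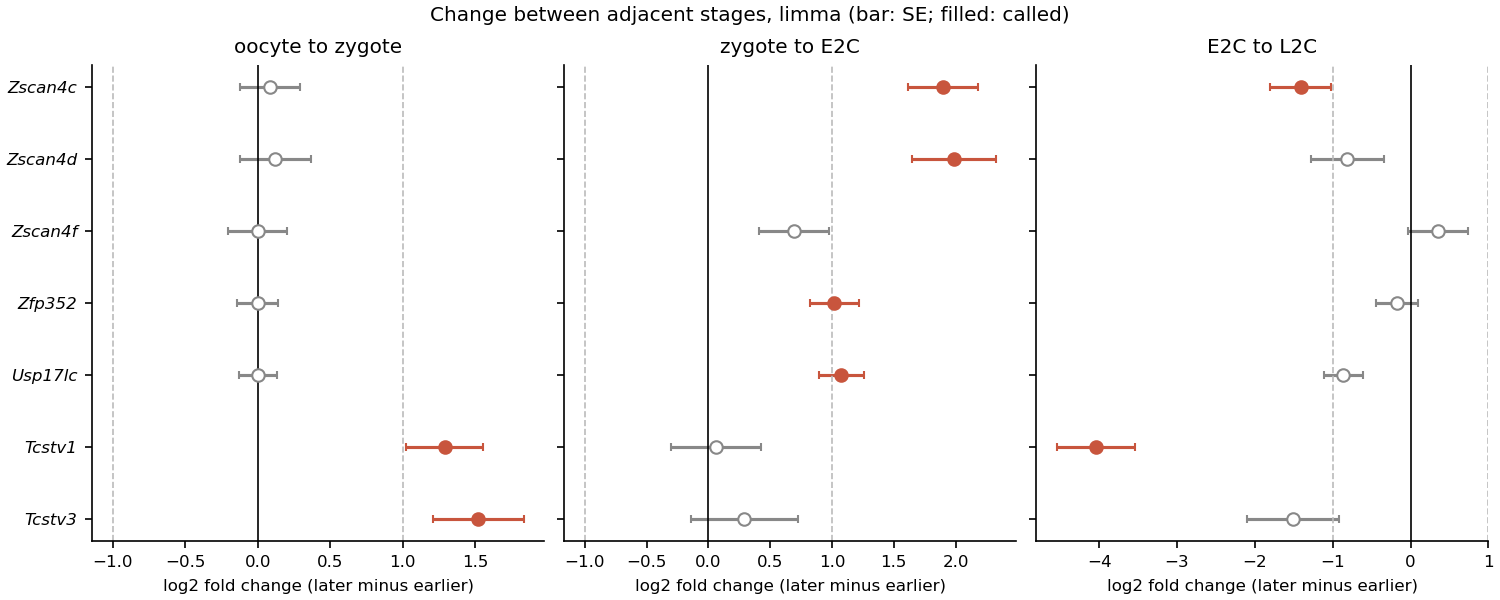
Log2 fold change, later minus earlier stage, on the log2(copies per 100,000 + 1) scale (horizontal axes) of the 7 tested members in 3 comparisons of adjacent stages; bars are the SE from limma, filled red points were called and dashed lines mark the fold limit of 1. Tcstv1 and Tcstv3 were called higher from oocyte to zygote, Zscan4c, Zscan4d, Zfp352 and Usp17lc in the next comparison, and Tcstv1 and Zscan4c were called lower in the last.

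The UMIs of the family were spread over most copies. A UMI counts 1 molecule whatever its length, so the copies can be set side by side. Of 184 Zscan4 UMIs in E2C, Zscan4d took 31.5%, Zscan4c 23.4%, Zscan4-ps3 12.0%, Zscan4-ps2 10.3%, Zscan4f 8.70%, Zscan4-ps1 8.15% and Zscan4e 5.98%, and Zscan4b had none. In L2C, of 46 UMIs, Zscan4d took 30.4%, Zscan4f 23.9%, Zscan4-ps2 17.4% and Zscan4c 10.9%. Of the 19 zygote UMIs, 13 were those of Zscan4-ps1. As the identity above shows, part of this spread may be reads of 1 copy assigned to another, which was not tested. Zscan4-ps2, the nearest to Zscan4f in sequence with 99.8% identity, passed the filter and was called lower from L2C to 4-cell (-1.08).

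**Figure D4:**
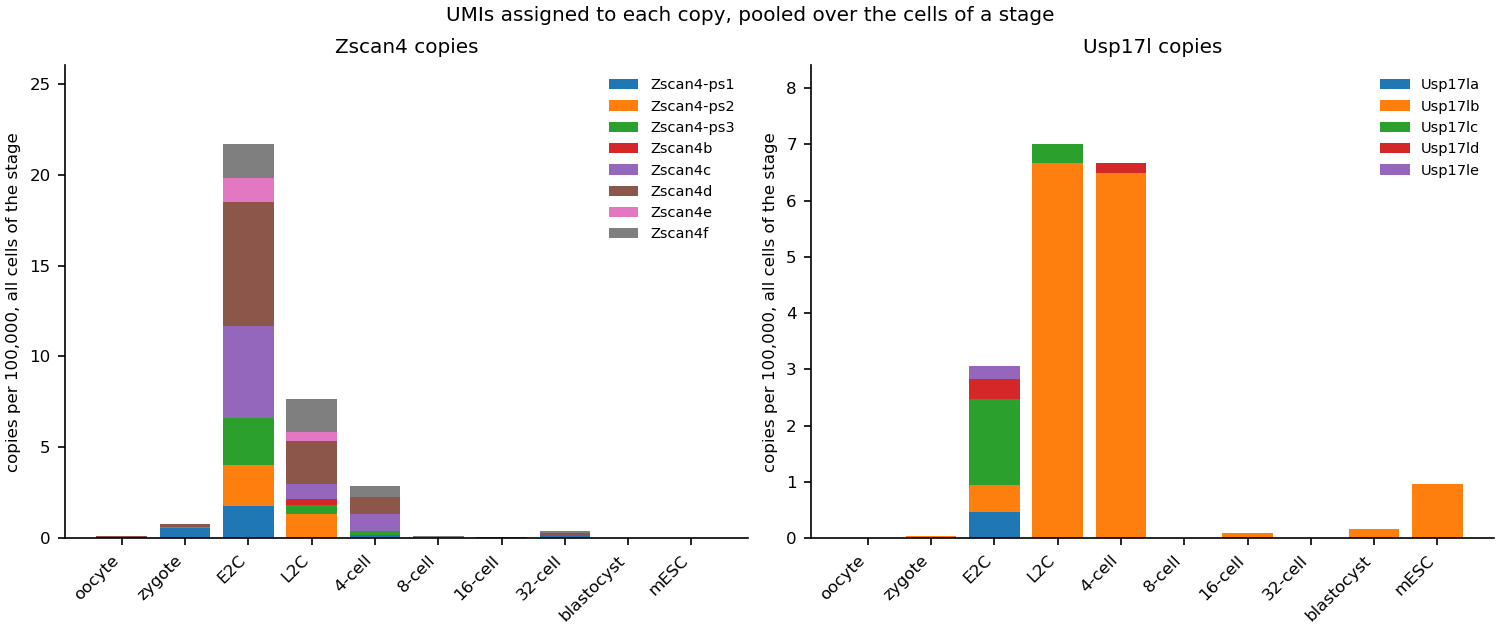
Copies per 100,000 UMIs pooled over all cells of a stage (vertical axes, linear) at 10 stages (horizontal axes), stacked by the family copy to which UMIs were assigned, for the 8 Zscan4 copies and the 5 Usp17l copies in the gene table. The tallest Zscan4 bar is that of E2C, with 184 UMIs over 7 copies, 129 of them from embryo 3, and the L2C and 4-cell bars of Usp17l are nearly all Usp17lb.

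Zfp352 was found at a low level, mainly in the 2-cell stages. It was at 0, 2.66, 2.04, 1.52 and 0 copies per 100,000 in the 5 E2C embryos and at 0, 0.740, 1.78, 2.00, 0.784 and 0 in the 6 L2C embryos. The 3 E2C embryos that had it (2, 3 and 4) had UMIs in both of their cells and were also the 3 with the most Zscan4. Among them Zfp352 was highest in embryo 2 and Zscan4 in embryo 3. Among L2C embryos, embryo 4 was highest for both. L2C embryo 6, however, had summed Zscan4 at 6.72 and Zfp352 at 0, and embryo 5 had the least Zscan4 (0.861) and Zfp352 at 0.784. Whether the levels go together was not tested. No UMI was found in oocytes, zygotes or from the 8-cell stage on, and 2 were found in 4-cell embryos.

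Most UMIs of the Usp17l members came from E2C embryos. Usp17lc was at 0, 1.24, 4.00, 1.10 and 0.543 copies per 100,000 in the 5 E2C embryos, again with embryo 3 highest and embryo 1 at 0, and in L2C it was found in embryo 4 alone (2.00, 2 UMIs). Of its 13 UMIs in E2C, 8 came from embryo 3. Usp17la was at 0.545 and 1.45 in E2C embryos 3 and 4 and at 0 in all other embryos. Usp17ld had 1 UMI in E2C embryo 2, was at 1.03 in embryo 4 and had 1 further UMI in a 4-cell embryo. Together these 3 members had 20 UMIs in E2C, 2 in L2C and 1 in 4-cell embryos. A count of 0 allows up to 0.500 copies per 100,000 in L2C, 0.572 in 4-cell embryos, 0.495 in blastocyst cells and 2.90 in mESC. The pooled E2C levels of Usp17la (0.472) and Usp17ld (0.354) lay under each of these limits, and that of Usp17lc (1.53) under the mESC limit. Counts of 0 in those groups therefore cannot show absence. Usp17lb, a family copy outside the list, had another order of levels. It was at most 1.61 in E2C, was at 5.56, 4.02, 17.7, 8.82, 3.21 and 2.63 in the 6 L2C embryos and 5.10, 4.90, 3.03, 3.11 and 11.4 in the 5 4-cell embryos, and was at 0 at the 8-cell stage. It rose by 2.16 from E2C to L2C (SE 0.324, adjusted p = 6.88e-08) without overlap of the embryos, as did or fell 27.6% of all genes, and from 4-cell to 8-cell it was called lower (-2.69). The difference in course between Usp17lb and Usp17lc was not tested.

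Tcstv1 and Tcstv3 were present before the 2-cell stage. Tcstv1 was already at 3.90 to 35.0 copies per 100,000 in the 10 oocytes (median 10.3) and at 9.74 to 60.4 in the 9 zygotes (median 40.2). In the 5 E2C embryos it was at 34.9, 22.2, 31.9, 29.1 and 30.3, a narrow range, and in the 6 L2C embryos at 0, 0, 1.78, 4.14, 1.64 and 0. All 10 E2C cells had UMIs of it, and no L2C embryo reached an E2C embryo. Such a lack of overlap between the 2 stages held for 27.6% of all genes. The means were 12.8 ± 9.08 in oocytes (n = 10), 32.5 ± 19.4 in zygotes (n = 9), 29.7 ± 4.72 in E2C (n = 5) and 1.26 ± 1.64 in L2C (n = 6), so zygote and E2C, neighbours in this order, did not differ beyond their spread. Tcstv1 was therefore high in E2C embryos 1 and 5, which had almost no Zscan4.

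Tcstv3 had a lower and more uneven course. It was at 0 to 8.75 copies per 100,000 in oocytes (median 1.05) and 1.27 to 13.9 in zygotes (median 6.88), at 5.34, 1.95, 12.9, 8.68 and 10.3 in the 5 E2C embryos and at 0, 0, 3.55, 20.6, 0.861 and 1.47 in the 6 L2C embryos. L2C embryo 4 alone, with 22 UMIs, lay above every E2C embryo. It was also the L2C embryo with the most Zscan4. Without it the difference from E2C to L2C was called (-2.01), and it was called as well without E2C embryo 2 (-1.81) or L2C embryo 3 (-1.73). In 4-cell embryos Tcstv3 had 2 UMIs, against 29 in L2C, of which 22 were those of embryo 4, and the difference was not called (-1.04, SE 0.671, adjusted p = 0.478).

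From oocyte to zygote both Tcstv genes were called higher, the 2 of 7 members called, where 2.92% of all genes were called higher and 3.24% in either direction. Tcstv1 rose by 1.29 (SE 0.265, adjusted p = 0.000358) and Tcstv3 by 1.52 (SE 0.314, adjusted p = 0.000386). In the exact permutation test over oocytes and zygotes (two-sided, unadjusted) p was 0.00944 for Tcstv1 and 0.0110 for Tcstv3. Oocytes and zygotes overlapped for both genes. From zygote to E2C neither was called (0.06 with SE 0.364 for Tcstv1 and 0.29 with SE 0.431 for Tcstv3).

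After L2C, Tcstv1 stayed at 0 to 4.24 copies per 100,000 in single embryos. As a percentage of the mean of the oocyte and zygote levels, it was at 5.56% in L2C, 6.73% in 4-cell, 2.97% in 8-cell and 5.39% in 16-cell embryos. H1foo, Gdf9 and Mos, oocyte genes that later cells should lack, were at 2.51 to 2.77%, 4.70 to 6.99%, 2.73 to 4.24% and 4.87 to 8.01% of theirs in the same stages. Tcstv1 thus lay above the range of these 3 genes in L2C, on 9 UMIs of which 5 came from embryo 4, and within it from 4-cell to 16-cell. In 32-cell embryos it was at 3.66% (6 UMIs), above their 0.145 to 0.440%, and in blastocysts at 2.95% (4 UMIs), below their 4.28 to 10.6%. These places rest on few UMIs. In mESC the 3 genes were at 3.91 to 5.36%. Tcstv1 had 0 of 103590 UMIs there, which allows up to 2.90 copies per 100,000, beside a reference level of 22.6. Its place against the 3 genes in mESC therefore cannot be told. The other 2 oocyte markers had courses of their own, with Bmp15 at 264% in E2C and 0.780% in 4-cell embryos and Zp3 at 192% in L2C and 74.2% in 4-cell embryos. Whether the late Tcstv1 UMIs are background was not tested.

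Full-length reads placed the starts of the Tcstv transcripts. The leading isoform of Tcstv1, PB.22351.3, had 3 exons, began 1556 bases upstream of the annotated start of the gene, spanned positions 119893339 to 119896341 and held 243 of 271 isoform UMIs in oocytes, 724 of 774 in zygotes and 225 of 246 in E2C. Its share per oocyte, zygote or embryo was 90.9 ± 7.62% (SD, n = 10), 92.8 ± 4.47% (n = 9) and 91.7 ± 5.45% (n = 5), and neither step passed an exact permutation test (two-sided, adjusted p = 0.662 for both of the 2 pairs tested; the differences were 1.93 and -1.19 percentage points). Isoforms that began at least 1000 bases upstream took 90.0% of Tcstv1 isoform UMIs in oocytes, 93.9% in zygotes, 91.9% in E2C and 4 of 8 in L2C. In Tcstv3 the isoforms were shared out differently. Its upstream isoform, PB.22390.1, began 1526 bases before the annotated start and held 3 of 3 isoform UMIs in oocytes, 11 of 15 in zygotes, 6 of 21 in E2C and 0 of 29 in L2C. The 2-exon isoform PB.22390.5, which began 47 bases before the annotated start, had no UMI in these oocytes or zygotes, 6 in E2C and 27 in L2C. Of these, 5 of the 6 in E2C came from embryo 3 and 22 of the 27 in L2C from embryo 4, the embryos with the most Zscan4 in their stages. This difference in the use of starts was not tested, because too few embryos held 5 or more Tcstv3 isoform UMIs. The isoform table also held only 7.14% of the Tcstv3 UMIs of the gene table in oocytes, 8.93% in zygotes and 30.9% in E2C against 100% in L2C, so the early shares rest on a small part of the reads, whereas for Tcstv1 it held 98.5% in oocytes and 95.9% in zygotes.

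**Figure D5:**
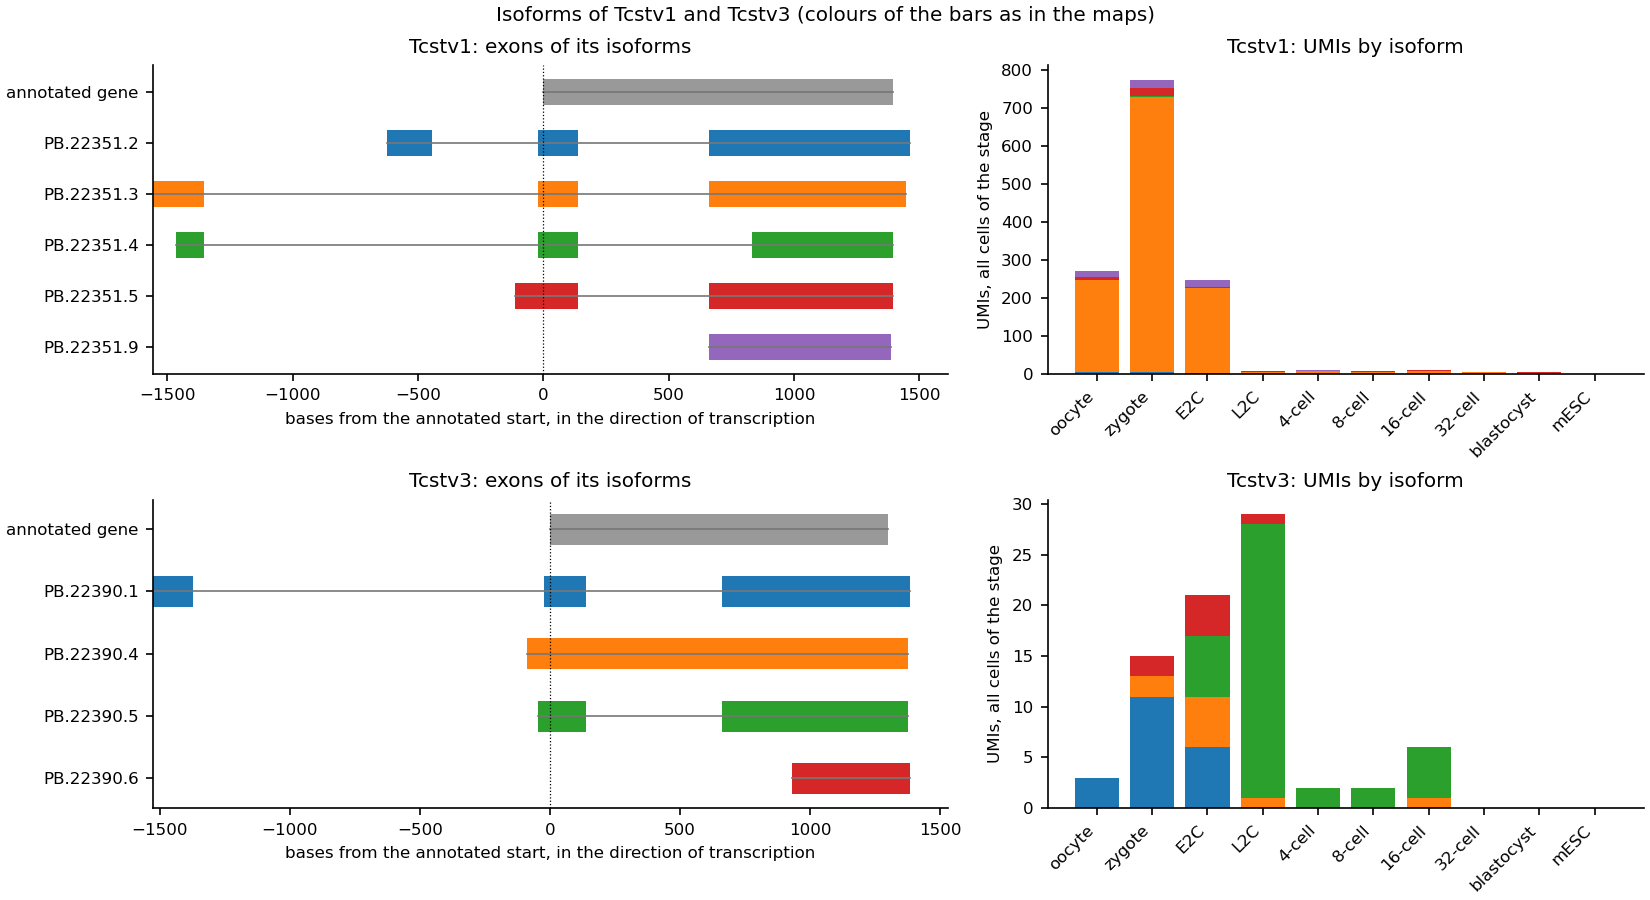
Left, exons (boxes) of the 5 Tcstv1 and 4 Tcstv3 isoforms against the span of the annotated gene (grey), with the horizontal axis in bases from the annotated start in the direction of transcription. Right, UMIs of each isoform (vertical axes, linear, same colours) summed over all cells of 10 stages; PB.22351.3 holds 225 of 246 Tcstv1 UMIs in E2C, and PB.22390.5 holds 27 of 29 Tcstv3 UMIs in L2C.

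The limma test was also run on all 29409 isoforms that passed the filter. From oocyte to zygote PB.22351.3 of Tcstv1 was the member isoform called higher (1.32, SE 0.291, adjusted p = 0.00277), a call that 1.16% of all isoforms had. PB.22351.3 then fell from E2C to L2C by 4.84 (SE 0.553, adjusted p = 2.28e-10) and PB.22351.9, a single-exon isoform of Tcstv1, fell by 1.63 (SE 0.467, adjusted p = 0.00475), where 13.1% of all isoforms were called lower. PB.22351.5 of Tcstv1, which began 114 bases upstream, differed by 0.25 (SE 0.472, adjusted p = 0.721) in that comparison. From zygote to E2C no tested member isoform was called, where 5.18% of all isoforms were. Those tested were PB.22351.3, PB.22351.5 and PB.22351.9 of Tcstv1, PB.22390.1 and PB.22390.5 of Tcstv3, and PB.65251.123 of Zscan4d. PB.65245.39 of Zscan4c and PB.65251.122 of Zscan4d did not pass the filter, so no change of these isoforms was tested. Zscan4c had 1 isoform in the table, PB.65245.39, with 4 exons and 12 UMIs in E2C and 3 in 4-cell embryos. Zscan4d had PB.65251.122, with 4 exons and 19 UMIs in E2C, and PB.65251.123, which kept its first intron and had 4 UMIs in E2C and 4 in L2C. These isoforms held 27.9% of the Zscan4c and 39.7% of the Zscan4d UMIs of the gene table in E2C, and no isoform of Zscan4f, Zfp352 or the Usp17l members was in the table.

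Batch 4, in which oocytes were read whole or split, held the same Tcstv isoforms. Tcstv1 had 72 UMIs in 4 intact oocytes, 110 in 6 parts of oocytes cut in 2 and 91 in 6 parts of oocytes cut in 4, with medians of 7.77, 9.66 and 6.93 copies per 100,000, and Tcstv3 had 24, 23 and 14. PB.22351.3 took 86.1% of the Tcstv1 UMIs of this batch and PB.22390.1 took 93.4% of those of Tcstv3. PB.22390.5, which the oocytes of the main table lacked, had 2 UMIs here. Batch 4 listed no isoform of Zscan4c, Zscan4d, Zscan4f, Zfp352 or the Usp17l members, so their level in these oocytes was not measured.

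Other genes of the 2-cell programme were compared as a list. Of 18 genes, 16 were tested. From zygote to E2C 8 were called higher and 0 lower, where 4.52% of all genes were called higher and 2.75% lower, and the median log2 fold change was 1.01 (1.27 with the 3 genes that a stage lacked set at their bound) beside 0.11 over all genes. Several of these genes, like the members, passed the filter through the 2-cell stages alone, so neither count nor median is support for a change of the list. Duxf3 rose by 2.45 (SE 0.155, adjusted p = 2.06e-19) with no overlap of zygotes and E2C embryos, as held for 4.42% of all genes. It passed the filter through the 5 E2C embryos alone, so this test is no independent support for its rise. The SE comes from a fit over all stages, in most of which Duxf3 was at 0. In the exact permutation test over embryos (two-sided, unadjusted) p was 0.000999. Gm8300 rose by 1.97, Gm5662 by 1.83 and Gm4340 by 1.58. From E2C to L2C 3 of the 16 were called higher and 2 lower, in a comparison in which 25.6% and 22.8% of all genes were (median 0.50 beside 0.03 over all genes). B020004C17Rik rose by 6.10 (SE 0.461, adjusted p = 4.00e-17), and Tdpoz1 and Tdpoz4, which encode TD and POZ domain proteins, rose by 1.88 and 1.73. Duxf3 fell by 2.49 and Gm4340 by 1.46.

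Known regulators of the programme moved in both directions. Of 12 tested, 2 were called higher and 2 lower from zygote to E2C, where 4.52% and 2.75% of all genes were (median 0.37 beside 0.11 over all genes). From E2C to L2C 5 were called higher and 2 lower, where 25.6% and 22.8% of all genes were (median 0.60 beside 0.03). Dppa2 and Dppa4, which encode partner proteins known to activate Dux, rose by 2.75 and 4.51 from E2C to L2C. Ncl and Trim28, which encode proteins known to repress Dux, fell by 1.67 and 1.18 from zygote to E2C and rose by 1.67 and 1.06 from E2C to L2C. For Ncl the study reports that short isoforms were high in oocytes and zygotes and that the complete isoform rose after genome activation. The isoforms of Ncl were not followed here, so which of them carried its gene-level fall was not tested. Lin28a encodes an RNA-binding protein also reported to repress the 2-cell-like programme in stem cells. It went the other way, rising by 1.30 and then falling by 1.82. Rif1, which encodes a telomere and replication timing factor, rose by 1.02 from zygote to E2C.

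Genes of telomere upkeep and DNA methylation, the processes for which ZSCAN4 is known, were described in the same way. Of 12 telomere genes, limma called 0 from zygote to E2C, where 4.52% of all genes were called higher and 2.75% lower (median 0.12 against 0.11). From E2C to L2C it called 1 higher and 3 lower, where 25.6% and 22.8% of all genes were (median -0.17 beside 0.03), so the share called lower was near that of all genes. Acd, a shelterin component, fell by 2.40, Blm, a helicase, by 1.98 and Atrx, a chromatin remodeller, by 1.30, and Terf1, which binds telomeric repeats, rose by 1.95. Of 5 DNA methylation genes, Dnmt1, the maintenance methyltransferase, fell by 1.50 and Dnmt3l rose by 1.03 from zygote to E2C. They were the 1 called lower and the 1 called higher, where 2.75% and 4.52% of all genes were (median -0.65 beside 0.11). Uhrf1, the partner of DNMT1, fell by 3.08 and Tet3, a 5-methylcytosine oxidase, by 2.95 from E2C to L2C. These were the 2 called lower, with 0 called higher, where 22.8% and 25.6% of all genes were (median -0.39 beside 0.03).

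Finally, the genes whose stage means were most like those of the members were listed by Pearson r of log2(stage mean + 1) over the 10 stages, among 4275 genes that reached 10 copies per 100,000 in a stage. For the summed Zscan4 copies these were Gm4027 (0.958), Naa50 (0.955) and Mki67 (0.942). Gm4027 was at 12.8 copies per 100,000 in E2C, 4.75 in L2C and 3.12 in 4-cell embryos, and at or below 0.0922 in other embryo stages. Naa50, an acetyltransferase gene, was instead at 20.8 or more in every stage and reached 47.7 in L2C. For Zfp352 they were Gm4027 (0.948), Naa50 (0.946) and Csrnp2 (0.906), for Tcstv1 Rasa4 (0.993), Pkd2l2 (0.990) and Oas1h (0.989), and for Tcstv3 Sebox (0.978), Taf3 (0.972) and Peak1 (0.972). Pkd2l2 was at 37.3, 83.7, 87.9 and 2.21 copies per 100,000 in oocytes, zygotes, E2C and L2C. The stages share cells, libraries and depth with the members, so these values are descriptions.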

How the data were processed

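Single cells of mouse oocytes, embryos and mESC were amplified with barcoded beads and read on the PacBio platform by HIT-scISOseq. The authors made consensus reads, assigned barcodes and UMIs, mapped to mm10, collapsed and classified isoforms, and kept isoforms found in at least 5 cells. The gene and isoform tables of 161 cells were deposited by the authors as CPM-type values, in copies per 100,000 UMIs of a cell (recorded as a score, as deposited by the authors, for columns of stages with few cells, since no name ties a cell to a run), and isoform values are relative to isoform UMIs, so levels are compared within a table only. Of non-zero gene values 100% were whole UMIs within 0.1, and these recovered UMIs gave depth and counting errors. Batch 4 was deposited by the authors as UMI counts (129744 to 289774 per column), and the deposited isoform annotation gave exons. Which run a cell came from, and its barcode, are not given in the sources used here, so no within-run values could be had.

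Cells were averaged per oocyte, zygote or embryo (43, with 121 cells; 40 cells name none). Features at 1 copy per 100,000 or more in at least 4 embryos were tested with limma 3.58.1 (trend, array weights, log2(value + 1), 7 stages in 1 fit, R 4.3.3), called at the limits that the study's methods state. P-values were adjusted over all tested features (Benjamini-Hochberg). Alternatives were edgeR 4.0.16 on recovered UMIs, pseudocounts of 0.1 and 10, no filter, no array weights, medians over cells, cells over 10000 UMIs, sums of isoforms, exact permutation (scipy 1.17.1) and leaving out single embryos. The fit was tested on simulated data. Only genes whose mean over the stages lay above that of the Zscan4, Zfp352 and Usp17l members were changed there. It therefore does not show how well changes of these members are found. Counting intervals (95%) and floors (3 UMIs) cover counting error only. Transcripts were aligned with Biopython 1.88. Text names every member and family copy, the 4 largest called genes of each list and the 3 nearest genes to Zscan4, Tcstv1, Tcstv3 and Zfp352. Members and lists were chosen with earlier results of these data known.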

Additional observations from a re-analysis of the deposited data

Results flagged for a closer look

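In groups of 4 to 10 oocytes, zygotes or embryos, 6 of 19 groups tested held a value far from the others. The rule was Dixon's ratio of the gap to the range. Its limits give about 1 in 20 for normally distributed values only. These values are low, skewed and often 0, so 6 of 19 cannot be set against that rate. The summed Zscan4 copies were at 65.0 copies per 100,000 in E2C embryo 3, where the next embryo was at 17.4, at 20.8 in L2C embryo 4, where the next was at 7.70, and at 11.1 in 4-cell embryo 3 (7 UMIs), where the next was at 2.62. Zscan4f was at 7.93 in E2C embryo 3 and at 0 in the other embryos of that stage, where the ratio is 1 by construction. Tcstv3 was at 20.6 in L2C embryo 4, where the next was at 3.55, and at 8.75 in oocyte 6, where the next was at 3.60. The groups are not independent, since the same embryos and family copies recur in them. The embryo numbers of different stages name different embryos.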

How the results depend on the processing

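The number of members called was 2 from oocyte to zygote, 4 from zygote to E2C, 2 from E2C to L2C and 0 from L2C to 4-cell. With a pseudocount of 10 it was 0, 0 and 1 in the first 3 of these, since low genes then stay under the fold limit by construction, and by exact permutation 1, 2 and 1. Leaving out 1 embryo gave 2 to 4 from zygote to E2C (2 without E2C embryo 2, 3 or 4) and 2 to 4 from E2C to L2C (4 without E2C embryo 1). By edgeR 1 member was called from L2C to 4-cell. Member isoforms called from zygote to E2C were 0, but 1 with a pseudocount of 0.1 and 2 without the filter, and from E2C to L2C 2, but 4 without the filter. By edgeR the sign turned for Zscan4f from E2C to L2C (-0.32) and, from zygote to E2C, for Tcstv1 (-0.37) and Tcstv3 (-0.014), none of them called. Without single embryos Tcstv1 from zygote to E2C ranged from -0.10 to 0.24, Zfp352 from E2C to L2C from -0.45 to 0.067, and the difference in the share of PB.22351.3 from zygote to E2C from -2.83 to 0.96 percentage points, none of them called. By edgeR, Zscan4f was called from zygote to E2C (4.72) and Zscan4d from E2C to L2C (-1.79). Without array weights Zscan4c from E2C to L2C (-0.96) and Zfp352 from zygote to E2C (0.96) were not called and Tcstv3 from E2C to L2C was (-1.49). Usp17lc from E2C to L2C was called with a pseudocount of 0.1 (-2.52) and without E2C embryo 1 (-1.14). As a sum of isoforms Tcstv1 was at 44.5 in E2C and Tcstv3 at 0.812 in zygotes. These sums are relative to isoform UMIs and cannot be set against gene levels, and isoforms held 8.93% of the zygote Tcstv3 UMIs. By the median over cells Tcstv1 was at 0 in 16-cell embryos, where 11 of 38 cells had a UMI of it. The causes were not tested. Leaving out oocytes, zygotes or L2C embryos, and single embryos for pooled folds and the summed Zscan4 level, was chosen after seeing the data. No paired analysis was possible because embryos of different stages are different embryos and their numbers pair nothing.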
